A study of Homo sapiens with 2 samples.

Results

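The mRNAs of 10 cytosolic chaperones of the HSP90 and HSP70 systems were followed in RNA co-precipitated with LRPPRC, an RNA-binding protein of mitochondria and cytoplasm. They were chosen by gene name out of 16770 named genes, with earlier results of these data known, and each of the 10 had 1 row. The RNA came from A549, a human lung adenocarcinoma line labelled WT and epithelial, whose lysate was incubated with 2 μg of anti-LRPPRC antibody, and both libraries used here are of this 1 condition (n = 2). The paper calls the replicates biological and the series description calls them technical, so the spread between them may be technical only. Values are FPKM, fragments divided by transcript length and by the library's mapped fragments, and therefore levels of different genes can be set side by side per length. They are levels in the precipitate, not enrichment over the cell, because no input or IgG library was analysed here. No test between conditions exists with 1 condition, so the values are a description.

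Summed FPKM was 196627 in replicate 1 and 194839 in replicate 2, and the sequencing depth is unknown from such values, so no counting interval was computed. Of 6 epithelial markers, KRT8, at 337 FPKM, KRT18 and KRT7 had a mean above 30, whereas CDH1 had 1.33 FPKM and EPCAM, a defining epithelial marker, 0.430. KRT7 was at the threshold, with 31.5 FPKM in replicate 1 and 29.6 in replicate 2, and KRT19 had a mean of 12.1. Of 4 genes listed as driven by NRF2 in A549, ALDH1A1 had 76.4 FPKM, AKR1B10 32.2, NQO1 27.6 and AKR1C1 7.66. All 3 alveolar type II markers with a value were below 0.2 FPKM, of which NKX2-1, at 0.124, was the highest. Of the markers of other cell types, COL1A2 of fibroblasts was the highest at 1.36 FPKM.

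HSP90 proteins are dimeric ATPases that complete the folding of client proteins, many of them kinases and receptors. HSP70 proteins bind short hydrophobic stretches of unfolded chains in an ATP cycle, in which J-domain proteins deliver the substrate and start hydrolysis, and HSP110 proteins and other exchange factors release ADP. Small heat shock proteins hold unfolding proteins without ATP. Cells make some members constantly and others mainly after heat or proteotoxic stress, when heat shock factor HSF1 binds arrays of alternating GAA and TTC units near their genes. Here HSP90AB1, HSPA8 and HSPA4 are the constitutive members, HSP90AA1, HSPA1A, HSPA1B, HSPH1, DNAJB1 and HSPB1 the stress-inducible ones, and DNAJA1 is in neither class.

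The chaperone mRNAs were mostly among the abundant transcripts of LRPPRC RIP, with a 43.8-fold range from HSP90AB1, at 974 ± 43.7 FPKM (SD, n = 2), to HSPH1, at 22.3 ± 0.858 (SD, n = 2). The paper uses FPKM 30 as the threshold for potential binding RNAs of LRPPRC. It also measured signals relative to input, which were not analysed here. A mean above FPKM 30 was reached by 8 of the 10, against 8.46% of all named genes and 13.3% of the 10631 with a mean of at least 1. Of the 10, 6 were above FPKM 100, which 1.54% of all named genes exceeded, and 3 were above FPKM 500, which 0.119% exceeded. Their median was 183 FPKM, against 2.48 over all named genes. Their share of all FPKM was 1.67% in replicate 1 and 1.69% in replicate 2, and HSP90AB1, HSP90AA1 and HSPA8 held 75.8% of the members' FPKM. For comparison, ACTB had 487 ± 4.66 FPKM (SD, n = 2) and GAPDH 367 ± 16.7 (SD, n = 2).

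The HSP90 mRNAs were the highest of the group. HSP90AB1, which encodes the constitutive HSP90 beta, reached 943 FPKM in replicate 1 and 1005 FPKM in replicate 2, and it ranked 4 among all named genes. HSP90AA1, which encodes the stress-inducible HSP90 alpha, had 841 and 921 FPKM (881 ± 56.1, SD, n = 2) and ranked 7. Both were higher in replicate 2, and within each library HSP90AB1 was above HSP90AA1, 1.12 times in replicate 1 and 1.09 times in replicate 2. The values did not overlap between the genes, but the lowest of HSP90AB1, 943, was close to the highest of HSP90AA1, 921. This order depends on the division by length. HSP90AA1 has the longer canonical transcript, 3228 bases against 2555, with a 3′ UTR of 970 bases against 285, and with FPKM multiplied by transcript length, an approximation of the share of fragments, HSP90AB1 was 0.875 times HSP90AA1. HSP90AB1 lies at chr6:44247101-44253883 of GRCh38, on the plus strand with 12 exons, and HSP90AA1 at chr14:102080742-102087044, on the minus strand with 11 exons.

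The HSP70 mRNAs differed far more. HSPA8, the constitutive HSC70, had 696 FPKM in replicate 1 and 582 in replicate 2 (639 ± 80.3, SD, n = 2) and ranked 12 among all named genes. HSPA1A and HSPA1B encode the inducible HSP70. HSPA1A had 50.6 and 48.7 FPKM (49.7 ± 1.33, SD, n = 2) and HSPA1B had 46.7 and 44.8 (45.8 ± 1.36, SD, n = 2). The libraries of HSPA8 lay far above those of both inducible genes, and HSPA8 was 13.8 times HSPA1A in replicate 1 and 11.95 times in replicate 2. HSPA8 lies at chr11:123057489-123062136, on the minus strand with 9 exons, whereas HSPA1A, at chr6:31815543-31817942, and HSPA1B, at chr6:31827738-31830254, are neighbours on the plus strand with 1 exon each.

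HSPA1A and HSPA1B can hardly be told apart by short reads, and their separate values are uncertain. Their coding sequences of 1926 bases differ at 4 positions, an identity of 99.8%, and none of the 4 changes any of the 641 amino acids. The substitutions from HSPA1A to HSPA1B are G1710T, G1860C, C1905T and A1920G, with positions counted from 1 at the A of the start codon, so the first 1709 coding bases are identical. Of all coding windows of 50 bases, 93.8% hold no difference, and of those of 150 bases, 87.8%. Within the coding part, a read can separate the genes only where it covers a differing position. The last 30 coding bases, positions 1897 to 1926, hold a pair of the 4 differences. They are shown as an example, with the differing bases in capitals:
HSPA1A: tcaggcccCaccattgaggaggtAgattag
HSPA1B: tcaggcccTaccattgaggaggtGgattag
The transcripts also differ in their UTRs, with a 3′ UTR of 260 bases in HSPA1A and 378 in HSPA1B. HSPA1A was 1.08 times HSPA1B in replicate 1 and 1.09 times in replicate 2. The sum of the genes, which depends little on how shared reads were divided between them, was 97.3 FPKM in replicate 1 and 93.5 in replicate 2, and HSPA8 was 7.15 and 6.23 times this sum. By contrast, the longest run of coding bases common to HSP90AB1 and HSP90AA1 was 23 bases, at 85.8% protein identity, and that common to HSPA8 and HSPA1A was also 23, at 85.6%.

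The HSP110 members, distant relatives of HSP70 that act as its exchange factors, stood far apart as well. HSPA4, also called APG-2, had 118 FPKM in replicate 1 and 119 in replicate 2 (119 ± 0.648, SD, n = 2). HSPH1, also called HSP105, had 22.9 and 21.6 FPKM, below 30 in both libraries and the lowest of the 10. HSPA4 was 5.17 times HSPH1 in replicate 1 and 5.51 times in replicate 2, and the libraries of the genes did not overlap. Their coding sequences share no run over 17 bases. HSPA4, at chr5:133052013-133106449 with 19 exons, and HSPH1, at chr13:31134973-31161904 with 18, have the longest transcripts of the group, 4774 and 5244 bases, of which the 3′ UTR makes up 42.2% and 44.7%.

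Of the J-domain proteins, DNAJA1 was the higher. DNAJA1, a farnesylated partner of HSC70, had 247.7 FPKM in replicate 1 and 247.6 in replicate 2. DNAJB1, the inducible HSP40, had 26.2 and 24.7 FPKM (25.5 ± 1.04, SD, n = 2), below 30 in both. DNAJA1 was 9.45 times DNAJB1 in replicate 1 and 10.0 times in replicate 2. Their transcripts are of like length, 2319 bases for DNAJA1, at chr9:33025273-33039907, and 2242 for DNAJB1, at chr19:14514769-14518397, so the ratio was 10.1 with FPKM multiplied by length.

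HSPB1, the small heat shock protein HSP27, had 286 FPKM in replicate 1 and 285 in replicate 2 (285 ± 1.183, SD, n = 2) and ranked 51 among all named genes. It lies at chr7:76302673-76304292 with 3 exons and has the shortest transcript of the group, 777 bases. It was 4 among the members by FPKM and 6 by FPKM multiplied by length, where DNAJA1 and HSPA4 were above it.

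The constitutive members were higher than most inducible ones, although the classes overlapped. All 3 constitutive members and 4 of 6 inducible members had a mean above FPKM 30, against 8.46% of all named genes. The 4 include HSPA1A and HSPA1B, which short reads can hardly tell apart. The median was 639 FPKM for constitutive and 47.7 for inducible members, a ratio of inducible to constitutive of 0.0699 in replicate 1 and 0.0803 in replicate 2. HSP90AA1 and HSPB1, both inducible, were above HSPA4, the lowest constitutive member, in each library. The medians rest on few genes, and with HSPA1A and HSPA1B summed as 1 gene the ratio was 0.149. In each of the 4 family pairs other than HSPA1A and HSPA1B, the gene that is not classed as inducible was the higher by FPKM, by 1.11 times for HSP90 and by 5.34 to 12.9 times for the others, a count that the choice of members bears on. With FPKM multiplied by transcript length it was the higher in 3 of the 4, since HSP90AB1 was then 0.875 times HSP90AA1. In the order of the 10 means, no neighbours overlapped in their library values. The closest neighbours were HSPA1A and HSPA1B, 1.08 times apart, HSP90AB1 and HSP90AA1, 1.11 times, DNAJB1 and HSPH1, 1.14 times, and HSPB1 and DNAJA1, 1.15 times. With 2 libraries such a lack of overlap is a description.

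**Figure D1:**
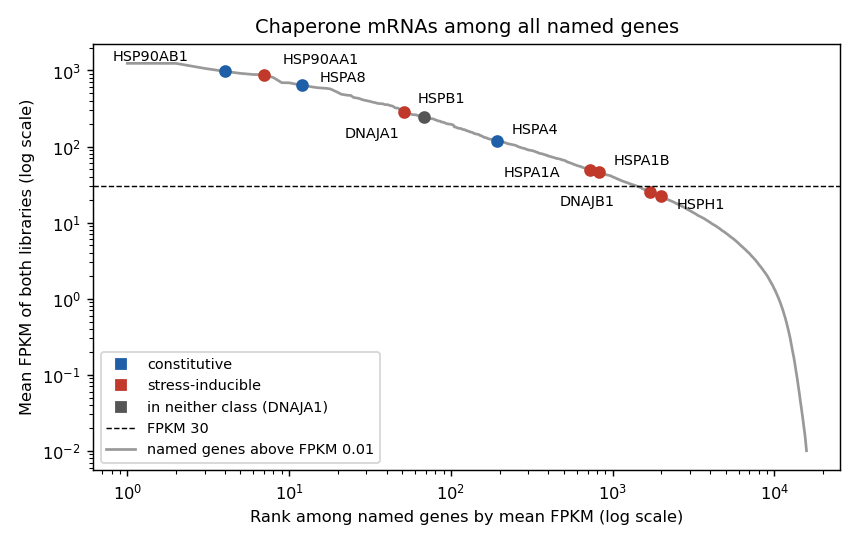
Mean FPKM of both libraries (y axis, log scale) against rank among the 16770 named genes (x axis, log scale), with the gray curve for named genes above FPKM 0.01 and the dashed line at FPKM 30. HSP90AB1, HSP90AA1 and HSPA8 hold ranks 4, 7 and 12, and the inducible DNAJB1 and HSPH1 ranks 1690 and 1977.

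Most members differed little between the libraries, but the 3 most abundant differed most. On the scale of log2(FPKM + 1), the median absolute difference between replicates was 0.07 over the 10 members, 0.04 over the 1418 named genes above FPKM 30 and 0.06 over those of at least 1. HSPA8 had the largest difference, a log2 difference of -0.26 from replicate 1 to replicate 2, and 3.31% of genes above FPKM 30 differed more. HSP90AA1, with a log2 difference of 0.13, and HSP90AB1, with 0.09, moved the other way, and 10.9% and 18.5% of such genes differed more. The ratio of HSP90AA1 to HSPA8 was therefore 1.21 in replicate 1 and 1.58 in replicate 2, the widest change among neighbours in the order. The log2 difference was 0.00 for DNAJA1, -0.01 for HSPB1 and 0.01 for HSPA4. In all, 7 of 10 members were lower in replicate 2, as were 56.8% of genes above FPKM 30.

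**Figure D2:**
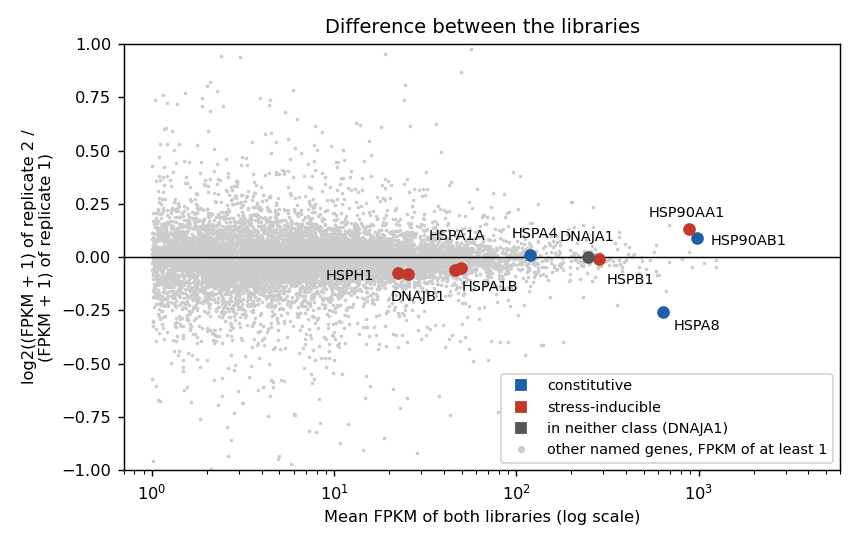
Log2 ratio of (FPKM + 1) in replicate 2 to replicate 1 (y axis) against mean FPKM (x axis, log scale) for named genes of at least 1 FPKM, of which 43 lie outside the plotted range. HSPA8, at -0.26, is the member farthest from 0, and HSP90AA1 and HSP90AB1 are the highest.

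Copies elsewhere in the genome touch the most abundant members. A copy was counted where at least 50% of the canonical transcript aligned at 90% identity or more outside the gene. HSPA8 had 6, on chromosomes 1, 3, 7, 12 and X, at 90.8% to 94.4% identity, and HSP90AA1 had 3, the closest being the processed pseudogene HSP90AA2P at 96.7%. HSP90AB1 had 2, of which HSP90AB3P covered the whole transcript at 96.3%. DNAJA1 and DNAJB1 had 1 each, at 92.5% and 92.8%, HSPA1A and HSPA1B are each other's copy, and HSPA4, HSPH1 and HSPB1 had none. The sources used here do not say how the authors placed reads that align to several loci, and the part of such reads in these levels was not tested.

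The promoters were searched for the units that HSF1 binds, since the classes differ in stress induction. RefSeq windows of GRCh38.p14, from 250 bases before to 50 after a transcription start, were found for all 10 members, 15 windows in all. The pair of units, GAANNTTC or TTCNNGAA, each of which reads the same on both strands, occurred in 9 of these 15 windows, from 8 of 10 members, against 13.5% of all 35116 windows and 16.2% of all 27305 genes with a window. An array of 3 units, GAANNTTCNNGAA or its reverse complement TTCNNGAANNTTC, which contains overlapping pairs and was chosen after the windows were seen, occurred in 4 of the 15 windows, from HSP90AB1, HSP90AA1, HSPA8 and DNAJA1, against 0.490% of all windows and 0.608% of genes. HSP90AB1 and DNAJB1 have 3 windows each and HSP90AA1 has 2, which gives them more letters to match in. The arrays are shown because they occur in both classes, with the units and their spacers in capitals:
HSP90AB1, chr6:44247769-44247798, plus strand: gggagcaggTTCTGGAAGATTCatgggctc
HSP90AB1, chr6:44247822-44247851, plus strand: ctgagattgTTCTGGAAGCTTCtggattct
HSP90AA1, chr14:102087112-102087141, minus strand: ggagggttcTTCCGGAAGGTTCgggaggct
HSPA8, chr11:123062346-123062375, minus strand: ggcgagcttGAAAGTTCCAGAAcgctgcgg
HSPA8, chr11:123062171-123062200, minus strand: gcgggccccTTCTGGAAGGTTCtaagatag
DNAJA1, chr9:33025267-33025296, plus strand: cgccgggcgGAACTTTCCAGAAcgctcggt
The arrays of HSP90AB1 lie in a window whose start is 842 bases downstream of that of the canonical transcript, and that of DNAJA1 lies just after the start. Only exact GAA and TTC units with 2 bases between them were counted. Arrays with a changed base in a unit were not searched for, so a lack of a match does not show that an array is absent. Members with an exact pair but no exact array of 3 were HSPA1A, HSPA1B, DNAJB1 and HSPB1. They are shown by the matching pairs of the neighbouring HSPA1 genes and that of HSPB1:
HSPA1A, chr6:31815426-31815455, plus strand: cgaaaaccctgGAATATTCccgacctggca
HSPA1B, chr6:31827622-31827651, plus strand: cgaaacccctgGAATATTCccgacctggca
HSPB1, chr7:76302480-76302509, plus strand: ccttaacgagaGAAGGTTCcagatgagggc
HSPA4 had no match in its window. HSPH1 had none either, but its 1 window is set on a start 484 bases upstream of that of the canonical transcript, and the promoter at the canonical start was not searched. Of the related genes described next, DNAJB6, HSPD1, CHORDC1 and HSPA6 had an array of 3. With a window were 14 other J-domain proteins, 7 chaperones of the endoplasmic reticulum and mitochondria, 14 of 20 HSP90 cochaperones and 5 of 7 other HSP70 genes. Each of these lists had 1 such gene, against 0.608% of all genes. Related genes without a window were not searched. The mean levels of the named genes ranged widely, from 74.2 FPKM for DNAJB6, 70.6 for HSPD1 and 14.6 for CHORDC1 to 0.0368 for HSPA6. A match is a description of the letters, and binding was not measured here.

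The wider chaperone network had a lower median than the 10 genes in each of its lists. Of 72 genes in 7 lists, 69 had a value. A mean above FPKM 30 was reached by 16 (23.2%), against 8.46% of all named genes and 13.3% of those of at least 1. CRYAA, HSPB2 and HSPB3 were not analysed here. The HSP90 cochaperones had 8 of 20 above 30 and a median of 19.0 FPKM. They were led by CDC37, which brings kinases to HSP90, with 575 FPKM in replicate 1 and 599 in replicate 2, STIP1, which links HSP70 to HSP90, with 120 and 115, and PTGES3, the p23 protein that holds the closed HSP90 dimer, with 106 and 109. CDC37 ranked 16 among all named genes, near HSPA8, and the other 19 lay between 2.67 and 118 FPKM.

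Other partners of HSP70 were lower. Among 14 other J-domain proteins 3 were above FPKM 30, namely DNAJB6, which suppresses aggregation, at 74.2 ± 11.0 (SD, n = 2), DNAJC13, which acts on endosomes, at 38.3 ± 0.263 (SD, n = 2), and DNAJC8 at 36.7 ± 2.88 (SD, n = 2), and the median was 8.62. Among 9 exchange factors and regulators 1 (11.1%) was above 30, near the 13.3% of all named genes of at least 1. This was BAG6, at 49.9 ± 0.125 (SD, n = 2), followed by BAG3, at 18.7, and ST13, at 14.5. The median of the 9 was 4.34.

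None of 7 other HSP70 genes was above FPKM 30, which 8.46% of all named genes exceeded. HSPA14 led them with 7.07 FPKM in replicate 1 and 7.34 in replicate 2, ahead of HSPA2, at 3.63, and HSPA12A, at 2.56. HSPA8 was 98.4 times HSPA14 in replicate 1 and 79.3 times in replicate 2. None of 6 other small heat shock proteins was above FPKM 30 either, and counts of 0 in lists this small lie near that share. HSPB6, at 4.35 FPKM, and HSPB11, a protein of ciliary transport named with them, at 3.71, were the highest, followed by HSPB8 at 0.303, and HSPB7 was listed at 0 in replicate 2. The heat shock factors HSF1, with 17.9 FPKM in replicate 1 and 18.8 in replicate 2, and HSF2, with 7.94 and 7.51, were the highest of 6 factors and regulators, ahead of HSBP1 at 0.770.

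Chaperones of the endoplasmic reticulum and mitochondria were lower than the most abundant of their cytosolic relatives, but not lower than all of them. Of 7, 4 (57.1%) had a mean above FPKM 30, against 8.46% of all named genes. HSP90B1, the HSP90 of the endoplasmic reticulum, had 42.5 ± 0.438 FPKM (SD, n = 2) and TRAP1, that of mitochondria, 52.8 ± 2.09 (SD, n = 2), and HSP90AB1 was 22.4 to 23.5 times the first and 17.4 to 19.6 times the second. HSPA9, the mitochondrial HSP70, had 60.8 ± 0.751 FPKM (SD, n = 2), and HSPA5, the HSP70 of the endoplasmic reticulum also called BiP, had 13.9 ± 0.0048 (SD, n = 2). HSPA8 was 11.4 times HSPA9 in replicate 1 and 9.67 times in replicate 2, and 50.1 and 41.9 times HSPA5. HSPA9 lay above the inducible HSPA1A, at 49.7 FPKM, and HSPA1B, at 45.8, and HSPA5 lay below both. HYOU1, the HSP110 relative of the endoplasmic reticulum, had 10.3 ± 0.0882 FPKM (SD, n = 2), and HSPH1, the lowest of the 10 chaperones, was 2.16 times it. The mitochondrial chaperonin HSPD1 had 70.6 ± 2.77 FPKM (SD, n = 2) and its partner HSPE1 2.89 ± 0.246 (SD, n = 2).

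**Figure D3:**
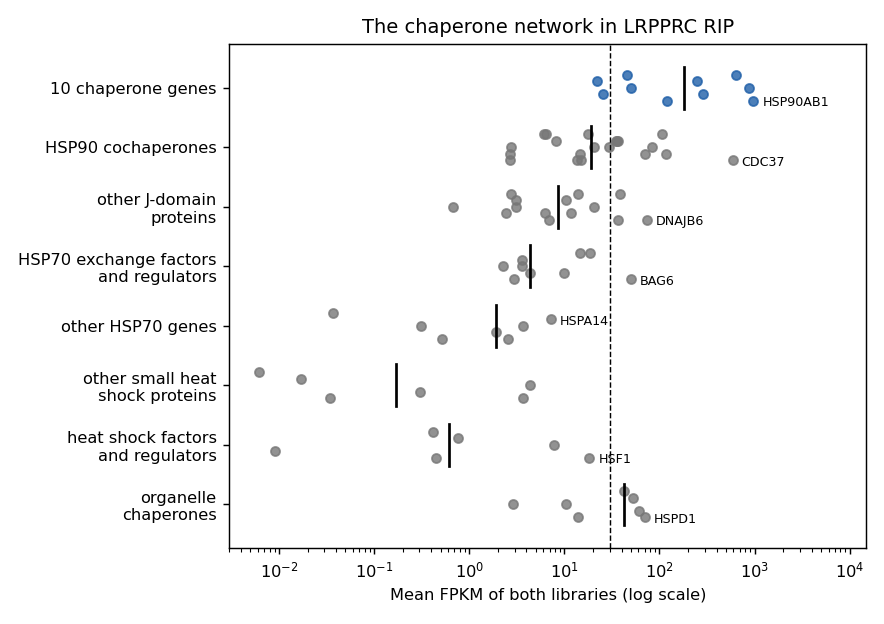
Mean FPKM of both libraries (x axis, log scale) of the 10 chaperone genes, in blue, and of 7 lists of related genes, in gray (y axis), where each point is a gene, black bars are list medians and the dashed line is FPKM 30. The 10 genes have a median of 183 FPKM, and CDC37, at 587 FPKM, is the highest gray point.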

How the data were processed

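RNA was immunoprecipitated from A549 lysates with anti-LRPPRC antibody and, per the paper, 4 h on protein A/G beads. It was sequenced in 2 libraries of total RNA. FPKM was deposited by gene and replicate. Per the paper and the processing notes of the submitters, these came from StringTie 1.3.3b, after alignment to GRCh38 by HISAT2 2.1.0 of reads trimmed with cutadapt 1.18. The table has 21262 rows. Of these, 4460 genes added by assembly carry no gene name, and 32 of the 16802 named rows repeat a name, for which the row with the higher mean was used.

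Means, SDs, ranks, ratios and counts above FPKM 30 were computed, with a pseudocount of 1 for log2 ratios and a filter of mean FPKM of at least 1 where stated. The depth is unknown, and the number of libraries limits the precision. The members and gene lists were chosen with earlier results of these data known. The genes named are the 10 members, the 3 highest and any gene listed at 0 in each list, all organelle paralogs, GAPDH and ACTB; others, among them HSPA6, CHORDC1 and the markers, were chosen after their values were seen or as checks. Transcripts were the canonical ones of GENCODE 44, on the same assembly but later than the authors' annotation. Copies were searched with blastn 2.17.0 on the primary chromosomes, and promoter sequences are from RefSeq, GRCh38.p14. Counting and motif functions were tested on simulated data. Python 3.11.15, numpy 2.4.6, pandas 2.3.3, Biopython 1.88 and matplotlib 3.10.9 were used. The alternatives were other thresholds, single libraries, multiplication by length, TPM, summed rows, other classes and a pseudocount of 0.1.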

Additional observations from a re-analysis of the deposited data

How the results depend on the processing

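Of 83 alternative values, single libraries not counted, 49 stayed within the spread between libraries or, for counts, within 1.5 times. Summing the rows of a name could not change any of these values, since each of the 10 members had 1 row. The 49 therefore include values that were fixed in advance. With FPKM multiplied by transcript length, HSP90AB1 to HSP90AA1 turned to 0.875, HSPA1A to HSPA1B was 1.03, HSPA4 to HSPH1 4.86 and the members' share 1.12%, since that undoes the division by length. Inducible to constitutive was 0.108 with DNAJA1 among the constitutive members and 0.149 with HSPA1A and HSPA1B summed, since the medians then fall on other genes. Above FPKM 50 stood 6 of the 10 members (10 above FPKM 20), 5 HSP90 cochaperones, 1 other J-domain protein and 0 exchange factors, since the threshold itself differs. Of named genes with a mean of at least 1, 6.76% were above FPKM 50 and 20.7% above FPKM 20. Of the 34 alternative values that moved or reversed, 20 were member levels in TPM or multiplied by length, which is a change of unit. The count of members above FPKM 30 was 8 with either library alone. A single one of 2 libraries always lies within 1 SD of the mean, so leaving one out does not test the levels. No paired analysis was possible because only 1 group exists. Without the depth, the error of low values is not known.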

Other observations

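Within the HSP90 cochaperones, CHORDC1 had 12.2 FPKM in replicate 1 and 17.0 in replicate 2, a log2 difference of 0.45 on the log2(FPKM + 1) scale. Among J-domain proteins, DNAJB6 had 66.4 and 81.9 FPKM, a log2 difference of 0.30. Both lay further apart between libraries than any of the 10 chaperones, and they were singled out once their values were known.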
